A study of Mus musculus with 29 samples.

Results

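Mouse bone marrow-derived macrophages that received IL-4 together with IL-6 were compared with macrophages that received IL-6 alone, which asks what IL-4 does to a macrophage that is also exposed to IL-6. The comparison used 10 of the study's 29 arrays, chosen by their labels: 5 labelled IL-4+IL-6 and 5 labelled IL-6. All cells came from the bone marrow of C57BL/6 wild-type animals that were 8 weeks old and were grown for 7 days in Teflon culture bags with 10 ng/ml of CSF-1, which turns marrow precursors into macrophages. Each cytokine was then added at 10 ng/ml for 24 h, with CSF-1 present in every group, the unstimulated one included. The other arrays hold unstimulated cells (8), IL-4 (5), IL-10 (3) and IL-4+IL-10 (3), and serve below to set the effect of IL-4 with IL-6 beside its effect alone and with IL-10. The labels do not say whether replicates came from separate mice or cultures, so the p-values measure the spread between these arrays, which may be technical. In RNA from a whole culture, fewer cells expressing a gene and less RNA per cell cannot be told apart.

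IL-4 binds a receptor that contains IL-4Rα and signals mainly through the transcription factor STAT6, which drives the program called alternative activation: arginase, resistin-like and chitinase-like proteins, C-type lectins and chemokines such as CCL24. IL-6 binds its receptor together with gp130, the product of Il6st, and signals mainly through STAT3, which induces its own feedback inhibitor Socs3 and, in macrophages, Il4ra. IL-10 also signals through STAT3, by a receptor that SOCS3 does not inhibit.

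The values are log2 intensities, 1 per probe set, and a difference of 1 on that scale is a 2-fold change. Of 12393 genes, 7153 were tested, those with at least 3 of the 29 arrays above the median of all values (log2 6.99, called the intensity filter here). A gene was called at a Benjamini-Hochberg adjusted p under 0.05 in limma. The macrophage label held: 13 of 13 measured macrophage markers lay above the filter in both groups, although 10 of the 13 were lower in IL-4+IL-6 and their summed level (log2 of the summed intensities) fell from between 17.36 and 17.45 to between 16.76 and 16.88. None of 13 fibroblast markers was above the filter in either group, and of 12 T and NK cell markers 1 was. Of 10 dendritic cell markers, 1 was above it in IL-6 and 2 in IL-4+IL-6. The 3 that could be tested (Cd209a, Batf3 and Ccr7, the last with both means under the filter) were higher. The summed level of the list was 9.13 to 9.31 in IL-6 and 11.18 to 11.33 in IL-4+IL-6. Cd209a and Batf3 also belong to the alternative activation list used below, so their rise cannot tell dendritic cells from macrophages that respond to IL-4. The part of dendritic cells in the results below was not tested. Of the tested neutrophil markers 1 of 8 was higher and 5 lower, with a summed level of 12.85 to 13.21 in IL-6 and 12.57 to 12.9 in IL-4+IL-6. The B and plasma cell markers had 1 of 6 in each direction. Their lower count was 0 after median centring and 4 with the replicate number as a block in the fit. The erythroid and megakaryocyte markers had 2 of 6 in each direction, and the mast cell, basophil and eosinophil markers 0 of 3 higher and 2 lower. Among all tested genes 34% were higher and 32.9% lower. The 3' minus 5' signal of the Actb control probe sets, a sign of RNA integrity, was 0.248 ± 0.0194 (SD, n = 5) in IL-6 and 0.363 ± 0.0185 (SD, n = 5) in IL-4+IL-6, with no overlap, and its part in the results was not tested.

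IL-4 moved most of the tested genes of IL-6-treated macrophages. In all, 4785 genes were called, 66.9% of those tested, of which 2431 were higher (34%) and 2354 lower (32.9%) in IL-4+IL-6. The values of the 5 arrays of each group did not overlap for 3925 genes (54.9%), and 4611 of the called genes moved the same way in all 5 pairs of equal replicate number. Changes of at least 1 on the log2 scale were fewer, 216 upward (3.02%) and 270 downward (3.77%). The median difference over all genes was 0.00351, but quantile normalization gives the arrays nearly the same distribution, so a small median is largely set by the processing. The first principal component of the 10 arrays, with 88.4% of the variance, parted the groups. Against a background of this size a called gene is common, so the gene groups below are given with their counts and medians and read against these shares. The lists were chosen with earlier results of these data known, so their counts and motif shares are descriptions only.

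The largest rises included many genes of alternative activation. Of 36 tested genes of the alternative activation list, 33 were higher, 2 lower and 1 not called, with a median difference of 2.81, against 34% of all genes called higher. Because the list was chosen with earlier results of these data known, this share describes the list and does not test it. Arg1, the enzyme that cleaves arginine to ornithine and urea, read 4.18, 4.36, 4.14, 4.28 and 4.31 in IL-6 replicates 1 to 5 and 14.27, 14.18, 14.18, 14.21 and 14.20 in IL-4+IL-6. The groups lay far apart, with every IL-6 array well under the filter, so the log2 difference of 9.96 (SE 0.0841, limma adjusted p = 3.07e-34) is given without a fold. Retnla, the resistin-like secreted protein also called Fizz1 or RELMα, read 5.80, 6.16, 5.90, 5.97 and 6.11 in IL-6 and 14.65, 14.69, 14.48, 14.53 and 14.59 in IL-4+IL-6, a difference of 8.60 (SE 0.103, limma adjusted p = 1.58e-30). Ccl24, a chemokine that attracts eosinophils, read 6.29, 6.69, 6.11, 6.30 and 6.06 in IL-6 and 14.04, 13.90, 13.73, 13.83 and 13.73 in IL-4+IL-6 (difference 7.56, SE 0.146). None of these 3 genes overlapped between the groups, which the choice of the largest increases required. All 3 were under the filter in IL-6.

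**Figure D1:**
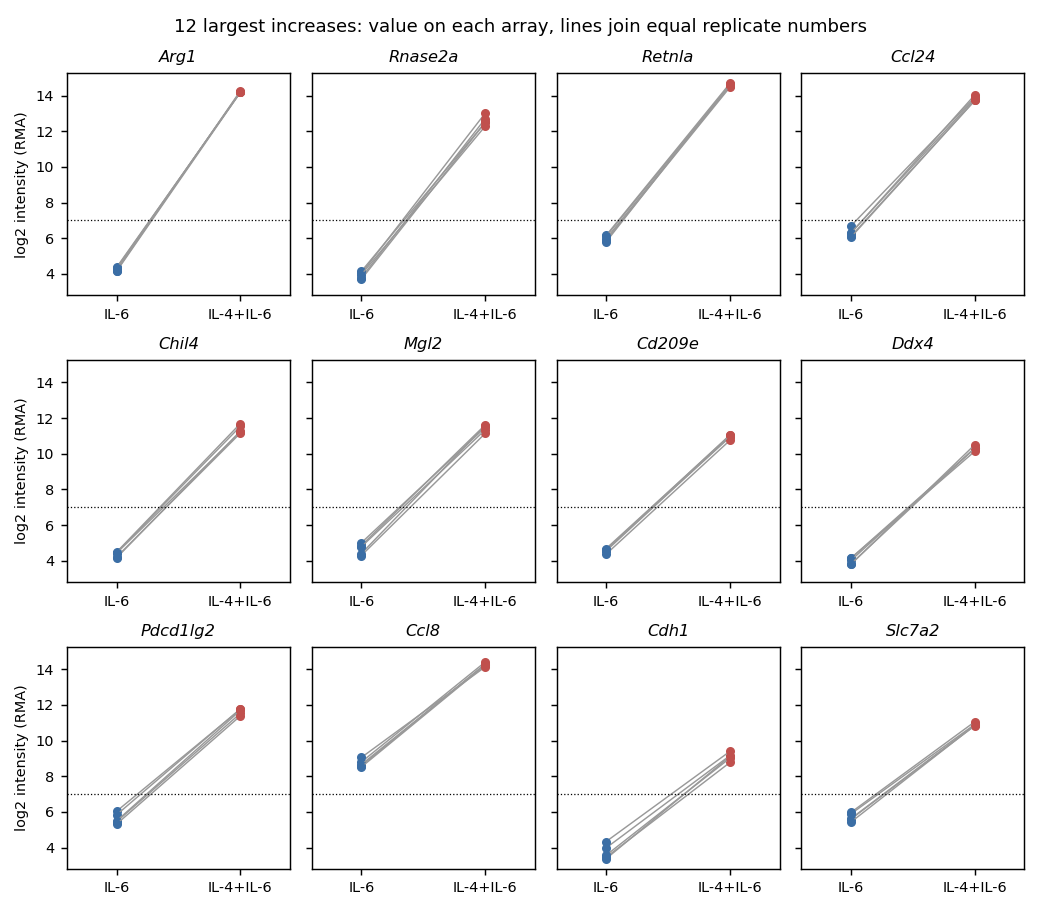
Log2 intensity of the 12 genes with the largest increase on each IL-6 (blue) and IL-4+IL-6 (red) array, with grey lines joining arrays of equal replicate number and a dotted line at the intensity filter (log2 6.99). All 5 lines rise in each panel, which the choice of genes required, and Ccl8 alone starts above the filter.

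The same 12 largest increases held Rnase2a, an eosinophil-type ribonuclease (8.68), the chitinase-like gene Chil4 (7.03), the C-type lectins Mgl2 (6.76) and Cd209e (6.39), the germline RNA helicase Ddx4 (6.34), Pdcd1lg2, which encodes the inhibitory ligand PD-L2 (6.01), the monocyte-attracting chemokine Ccl8 (5.55), the E-cadherin gene Cdh1 (5.35) and the cationic amino acid transporter Slc7a2 (5.21). Cd209e read 4.62, 4.62, 4.55, 4.37 and 4.68 in IL-6 and 10.94, 11.06, 10.98, 10.76 and 11.03 in IL-4+IL-6. Pdcd1lg2 read 6.04, 5.83, 5.45, 5.49 and 5.31 in IL-6 and 11.76, 11.78, 11.53, 11.70 and 11.39 in IL-4+IL-6. Both went from under the filter in every IL-6 array to well over it in every array of the combination. Chil4 has a close relative in Chil3, Rnase2a in the other eosinophil-associated ribonucleases and Cd209e in the other Cd209 genes, so their probe sets may share signal with a paralog.

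STAT6 is known to bind a palindrome of TTC and GAA with 4 bases of any kind between them. In the 250 bases before each gene's start (RefSeq promoters, GRCm38.p6), searched on both strands, this motif stood in 343 of 5916 tested genes with a promoter entry (5.8%) and in 5.85% of the 32851 promoters of the table. Of the 12 largest increases 8 had an entry and 3 of the 8 held it; of the 12 largest decreases 8 had an entry and 0 held it. In the alternative activation list it stood in 6 of 25 (24%): Retnla, Pdcd1lg2, Cd209e, Ccl17, Clec7a and Itgax. Over all genes it stood in 6.6% of those called higher and 5.86% of those called lower, and the same letters 3 bases apart, described with Socs3 below, stood in 20% of the alternative activation list. The promoters of the 3 genes among the largest increases follow, 5′ to 3′ along the gene and ending at the base before its start, with the palindrome in capitals: Retnla at chr16:48842359-48842608 on the plus strand, Pdcd1lg2 at chr19:29410669-29410918 on the plus strand and Cd209e at chr8:3854287-3854536 on the minus strand.
Retnla: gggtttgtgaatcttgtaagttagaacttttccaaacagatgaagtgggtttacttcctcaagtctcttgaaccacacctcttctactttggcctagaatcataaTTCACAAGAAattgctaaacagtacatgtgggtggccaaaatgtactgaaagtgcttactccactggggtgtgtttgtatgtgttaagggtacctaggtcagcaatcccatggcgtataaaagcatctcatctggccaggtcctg
Pdcd1lg2: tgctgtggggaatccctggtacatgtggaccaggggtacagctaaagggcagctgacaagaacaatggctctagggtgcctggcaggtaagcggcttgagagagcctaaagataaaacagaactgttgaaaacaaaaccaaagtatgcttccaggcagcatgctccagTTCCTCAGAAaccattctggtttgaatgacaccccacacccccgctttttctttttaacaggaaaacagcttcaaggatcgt
Cd209e: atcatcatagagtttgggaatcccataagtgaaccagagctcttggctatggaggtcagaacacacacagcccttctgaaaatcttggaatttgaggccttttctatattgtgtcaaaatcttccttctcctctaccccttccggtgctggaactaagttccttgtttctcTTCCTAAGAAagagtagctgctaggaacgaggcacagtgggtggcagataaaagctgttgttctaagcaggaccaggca
The motif begins 145 bases before the start in Retnla, 82 in Pdcd1lg2 and 79 in Cd209e. Such a match describes letters in a window and is not a binding site shown by these data.

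The feedback inhibitors of the SOCS family bind cytokine receptors or JAK kinases and dampen their signal. Of 7 tested genes, 6 were higher and 1 was lower (median 1.09), against 34% and 32.9% of all genes. Socs2, Cish and Socs1 rose from under the filter, by 5.01, 3.02 and 2.55. Socs1 read 5.08, 5.32, 5.18, 5.38 and 5.53 in IL-6 and 7.93, 7.67, 8.00, 7.83 and 7.82 in IL-4+IL-6. Socs6 rose 2.13-fold, from 9.92 ± 0.0487 to 11.01 ± 0.0859 (SD, n = 5 each). The lower gene was Socs3, the inhibitor of gp130 signalling, with 11.40, 11.44, 11.35, 11.48 and 11.51 in IL-6 and 11.04, 11.25, 11.17, 11.17 and 10.95 in IL-4+IL-6. Its 5 combination arrays were all lower than its 5 IL-6 arrays, by a difference of -0.32 (SE 0.119, limma adjusted p = 0.0192), which lost its call without IL-4+IL-6 replicate 5 (-0.28, adjusted p = 0.0541). In unstimulated cells its mean was 6.49, so Socs3 stayed high in both groups with IL-6.

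The Socs3 promoter, at chr11:117969367-117969616 on the minus strand, is shown because it holds the palindrome known for STAT3, TTC and GAA with 3 bases between them, in capitals, 154 bases before the start.
Socs3: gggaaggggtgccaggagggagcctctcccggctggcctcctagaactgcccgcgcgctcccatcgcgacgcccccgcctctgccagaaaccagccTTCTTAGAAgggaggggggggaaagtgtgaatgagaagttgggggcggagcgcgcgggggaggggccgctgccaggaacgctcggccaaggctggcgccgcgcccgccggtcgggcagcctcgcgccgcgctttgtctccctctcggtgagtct
Searched on both strands, TTC and GAA with this spacing stood in 6.95% of the tested genes with a promoter, in 5 of 25 genes of alternative activation (20%), in 3 of 18 PERK-ATF4 genes (16.7%) and in 4 of 23 STAT3-responsive genes (17.4%), namely Socs3, Fgl2, Fpr2 and Tnfrsf1b, of which Fgl2 was higher and the others lower.

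Of 27 tested STAT3-responsive genes, 13 were higher and 11 lower, with a median of 0.09, against 34% and 32.9% of all genes. The largest rises were in a group of monocyte chemokines, Ccl8, Ccl7 and Ccl12. Ccl8 read 8.58, 8.80, 8.66, 8.52 and 9.05 in IL-6 and 14.30, 14.41, 14.27, 14.23 and 14.14 in IL-4+IL-6, a 46.8-fold rise (log2 5.55, SE 0.163, limma adjusted p = 2.2e-21). Ccl7 rose 19-fold and Ccl12 11.5-fold. The largest fall was Saa3, an acute-phase serum amyloid, which was 7.49-fold lower (11.73 ± 0.173 against 8.82 ± 0.469, SD, n = 5 each). Gja1, a gap junction protein of the connexin family, read 9.92, 9.90, 9.90, 9.91 and 10.54 in IL-6 and 12.30, 12.43, 12.45, 12.35 and 12.47 in IL-4+IL-6, a 5.16-fold rise. IL-6 replicate 5 stood above the other 4 for this gene and still under every combination array.

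Of 22 tested receptor, JAK, STAT and phosphatase genes that serve IL-4, IL-6 or IL-10, 7 were higher and 12 lower (median -0.18). Among all tested genes the shares were 34% and 32.9%. Il4ra, the signalling chain of the IL-4 receptor, read 10.76, 10.77, 10.67, 10.65 and 11.04 in IL-6 and 11.43, 11.34, 11.31, 11.34 and 11.31 in IL-4+IL-6. Every combination array exceeded every IL-6 array, a 1.48-fold rise (log2 0.57, SE 0.109, limma adjusted p = 5.01e-05), and the unstimulated mean was 7.87. The kinase gene Jak2 rose 4.6-fold, with IL-6 arrays between 9.47 and 9.55 and combination arrays between 11.67 and 11.76. Il6st, which encodes gp130, rose 4.09-fold, from 9.80 ± 0.1 to 11.83 ± 0.0541 (SD, n = 5 each). Il13ra1, the chain that joins Il4ra to form the receptor for IL-13, fell by 2.12 to below the filter, and the phosphatase gene Ptpn6 (SHP-1) was 2.39-fold lower. Stat3 and Stat6 themselves fell by 0.23 and 0.25, so the messenger RNA of both factors was slightly lower in the combination.

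Arginine and polyamine genes were all called: of 16 tested, 11 were higher and 5 lower (median 0.36), against 34% and 32.9% of all genes. Beside Arg1, the arginine importer Slc7a2 read 5.60, 5.63, 5.89, 5.43 and 5.98 in IL-6 and 10.84, 10.88, 10.92, 10.86 and 11.06 in IL-4+IL-6. Gatm, which starts creatine synthesis from arginine, was 2.79-fold higher. Smox, the oxidase of spermine, was 2.33-fold lower.

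The chemokine list split, with 9 of 18 tested genes higher and 7 lower (median 0.21), against 34% and 32.9% of all genes. The largest changes among them were the rises of Ccl24, Ccl8, Ccl7 and Ccl12 given above. Ccl17, a chemokine of alternative activation that attracts T cells, was raised by 0.87 with both means under the filter (5.02 and 5.89). Among chemokine and formyl peptide receptors 8 of 12 were lower and 3 higher (median -0.64). Ccr2, the receptor that brings monocytes to CCL2, read 11.19, 11.21, 11.07, 11.14 and 10.81 in IL-6 and 8.51, 8.15, 7.96, 8.20 and 7.93 in IL-4+IL-6, a 7.65-fold fall with no overlap. C5ar1, the receptor for complement C5a, was 6.37-fold lower, while Fpr2 and Cx3cr1 fell by 2.72 and 1.66 to below the filter.

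The largest falls were led by Adgre4, an adhesion G protein-coupled receptor of macrophages, with 9.32, 9.38, 9.03, 9.06 and 8.41 in IL-6 and 4.62, 4.51, 4.17, 4.88 and 4.39 in IL-4+IL-6 (difference -4.52, SE 0.203, limma adjusted p = 3.22e-17). Slc40a1, the iron exporter ferroportin, followed with 9.93, 10.04, 10.03, 9.92 and 9.48 against 6.06, 6.33, 6.33, 5.95 and 6.24 (difference -3.70). Nfkbiz, which encodes the inflammatory co-regulator IκBζ, read 10.40, 10.39, 10.34, 10.41 and 10.53 in IL-6 and 7.14, 6.94, 6.85, 6.71 and 6.86 in the combination (difference -3.52). The 12 largest falls were also picked among genes whose groups did not overlap. The pathogen-sensing C-type lectins Clec4d (Mcl), Clec4e (Mincle) and Clec4n (Dectin-2) were 10.1-fold, 8.98-fold and 7.82-fold lower. The rest of the 12 largest falls were Tlr2 (-3.38), Pcp4l1 (-3.20), Marcksl1 (-3.10), Arap3 (-3.06), Cxcl10 (-3.05) and the transglutaminase gene F13a1 (-2.99).

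**Figure D2:**
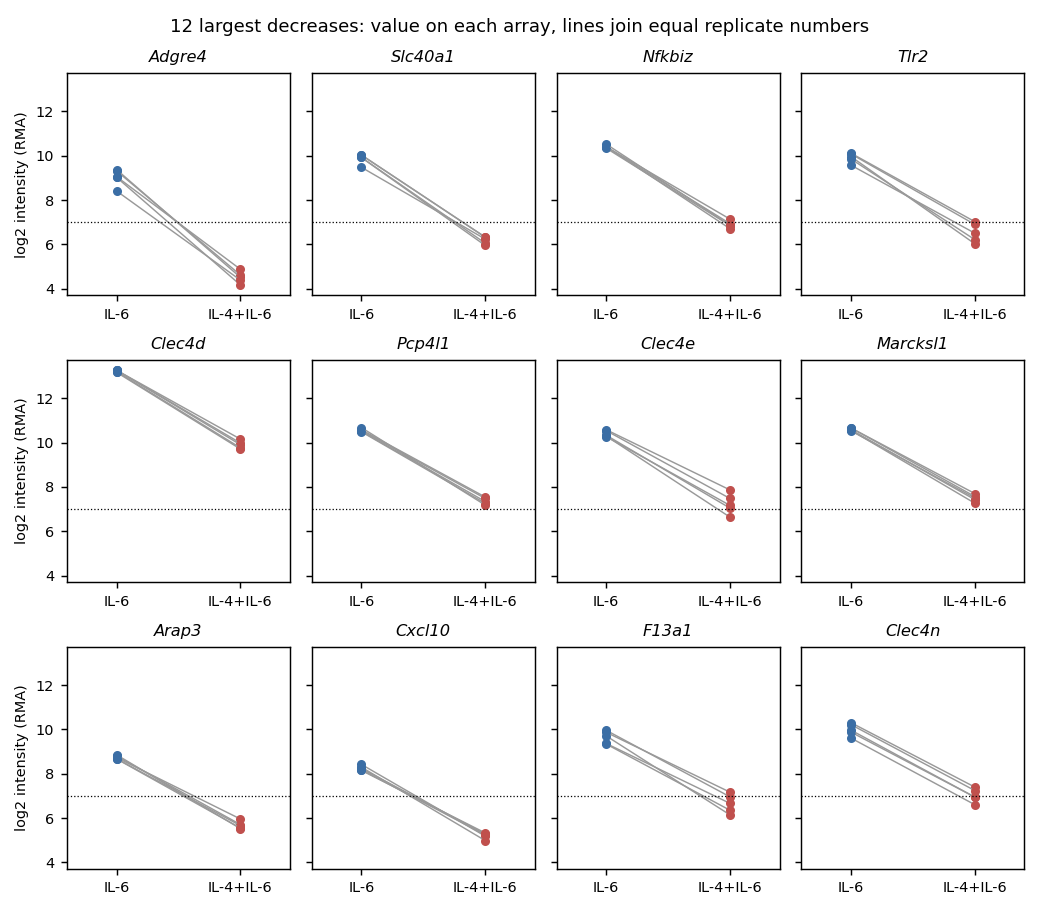
Log2 intensity of the 12 genes with the largest decrease on each IL-6 (blue) and IL-4+IL-6 (red) array, with grey lines joining arrays of equal replicate number and a dotted line at the intensity filter (log2 6.99). All 5 lines fall in each panel, which the choice of genes required, and Clec4d keeps the highest level in the combination, with values of 9.71 to 10.16.

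Genes of innate sensing and inflammation fell together. Of 15 tested genes of classical inflammatory activation, 11 were lower and 1 higher (median -1.05), against 32.9% of all genes called lower, and with the replicate block 11 were lower and 3 higher. Il1b, the inflammatory cytokine IL-1β, read 8.83, 9.0, 8.86, 8.70 and 8.58 in IL-6 and 6.36, 6.46, 6.33, 6.03 and 6.04 in IL-4+IL-6, so it went from above to below the filter on all 5 arrays. The neutrophil-attracting chemokine Cxcl2 fell by 2.74, also to below it. Of 15 Toll-like receptors and their co-receptors, 12 were lower and 1 higher (median -0.62). Cd14, the lipopolysaccharide co-receptor, read 13.26, 13.20, 13.20, 13.24 and 13.23 in IL-6 and 10.66, 10.57, 10.50, 10.47 and 10.19 in the combination, a 6.73-fold fall. Tlr7, a sensor of single-stranded RNA, was 1.94-fold lower.

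Of 33 tested genes of the type I interferon response, 25 were lower and 5 higher (median -0.55), against 32.9% and 34% of all genes. Cxcl10, a chemokine induced by interferons, read 8.24, 8.19, 8.43, 8.30 and 8.15 in IL-6 and 5.28, 5.24, 5.19, 4.99 and 5.33 in IL-4+IL-6. The antiviral genes Ifit3 and Ifit1 fell by 2.38 and 1.70, Ifit1 to 7.16 ± 0.173 (SD, n = 5) and thus still above the filter. Usp18, the protease that removes ISG15 and restrains interferon receptor signalling, went the other way and was 3.16-fold higher, from arrays of 7.79 to 7.99 to arrays of 9.43 to 9.75.

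Macrophage identity genes were mostly lower, 17 of 24 against 2 higher (median -0.44), where 32.9% of all tested genes were lower and 34% higher. Of the macrophage markers given above, 10 of 13 were lower. Mpeg1, the pore-forming perforin-2 of macrophages, read 14.11, 14.11, 14.09, 14.09 and 13.99 in IL-6 and 12.33, 12.30, 12.10, 12.08 and 11.92 in IL-4+IL-6 (3.81-fold lower). Gpr34, a lysophospholipid receptor, fell by 2.74 with both group means under the filter. Efferocytosis genes, which serve the uptake of dying cells, were lower in 14 of 20 and higher in 1 (median -0.36). Axl, a receptor kinase that binds dying cells through Gas6, fell by 2.58 to 6.59 ± 0.302, and Thbs1, a secreted bridging protein, fell by 2.73 to 6.38 ± 0.335 (SD, n = 5 each). Both ended below the filter.

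Scavenger receptors held called genes in both directions, 3 of 11 higher and 6 lower (median -0.52), against 34% and 32.9% of all genes. Cd163, the receptor for haptoglobin-haemoglobin, read 4.86, 4.65, 4.72, 4.58 and 4.60 in IL-6 and 9.21, 9.18, 8.74, 8.66 and 8.62 in IL-4+IL-6, and so rose from under to above the filter (difference 4.20). Stab1 and Stab2, related receptors of the stabilin family, went opposite ways: Stab1 was 3.68-fold lower and Stab2 rose by 1.28 from below the filter. Msr1, the class A scavenger receptor, was 2.41-fold lower. Complement genes were lower in 7 of 11 and higher in 2 (median -0.44), with Itgam, the CD11b chain of complement receptor 3, 3.31-fold lower and Itgax, the CD11c chain of complement receptor 4, 2.26-fold higher. All 6 tested Fc receptor genes were called, 3 in each direction: the activating receptor Fcgr1 was 3.64-fold lower and the inhibitory receptor Fcgr2b 2.15-fold higher.

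For MHC class II presentation 0 of 6 tested genes were higher and 4 lower (median -0.32), against 34% and 32.9% of all genes. The arrays of the groups overlapped in every gene of this list. The count of lower genes was 2 after median centring and 5 with the replicate block. Ciita, the transactivator of the MHC class II genes, read 9.05, 8.76, 8.44, 8.48 and 7.69 in IL-6 and 7.95, 7.52, 7.32, 7.39 and 6.84 in IL-4+IL-6 (difference -1.08, SE 0.266, limma adjusted p = 0.000811). Its spread was wide in both groups and replicate 5 was lowest in each, while the 5 pairs of equal number all fell, by differences of -1.24 to -0.85. H2-Eb1, H2-Ab1 and H2-Aa fell by 0.53, 0.40 and 0.25. A dimmer H2-Aa probe set (12.65 in IL-6, against 13.93 for the one used) fell by 0.50. The calls of H2-Ab1 and H2-Aa were each lost when any of several arrays was left out, with H2-Ab1 at -0.29 (limma adjusted p = 0.156) and H2-Aa at -0.18 (adjusted p = 0.129) without IL-6 replicate 1. With the replicate block on the groups compared both were called (limma adjusted p = 0.000582 and 0.0019). Costimulatory and coinhibitory ligands split evenly, 7 of 16 in each direction, against 34% of all genes higher and 32.9% lower. Slamf1 was raised by 2.70 from below the filter and Slamf7 was 2.69-fold lower.

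Genes of the secretory pathway rose by small amounts in large numbers, where 34% of all tested genes were higher and 32.9% lower. Of 46 tested folding genes of the IRE1-XBP1 and ATF6 branches of the unfolded protein response, 35 were higher and 2 lower (median 0.40), and of 19 genes of the PERK-ATF4 branch and serine synthesis 17 were higher and 0 lower (median 0.72). Of 44 genes of COPII, COPI and secretory transport 35 were higher and 2 lower (median 0.26), or 36 and 4 with the replicate block. The protein disulfide isomerase gene Pdia4 read 10.05, 10.15, 10.16, 10.11 and 10.20 in IL-6 and 12.47, 12.51, 12.45, 12.38 and 12.42 in IL-4+IL-6, a 4.96-fold rise with no overlap. Pdia5, of the same family, and Wfs1, an endoplasmic reticulum membrane protein, were each 2.36-fold higher. Atf6, the membrane-bound factor that gives its branch its name, was 2.09-fold lower.

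The chaperone gene Hspa5 (BiP), a standard readout of the unfolded protein response, read 13.59, 13.58, 13.59, 13.60 and 13.69 in IL-6 and 13.81, 13.86, 13.85, 13.83 and 13.83 in IL-4+IL-6. The groups did not overlap and the rise was 1.17-fold (log2 0.23, SE 0.0344, limma adjusted p = 1.86e-06). Xbp1, whose messenger RNA IRE1 splices, read 12.58, 12.55, 12.55, 12.62 and 12.59 against 12.51, 12.74, 12.72, 12.69 and 12.71. Here replicate 1 of the combination lay under all IL-6 arrays and the others above them, and the difference of 0.10 was not called (adjusted p = 0.0698), but was without that array (0.14, limma adjusted p = 0.00733). With the replicate block on the groups compared it was not called (adjusted p = 0.0727), and 6 other settings that called it gave adjusted p-values of 0.00248 to 0.0418. These probe sets do not measure splicing. Ern1, which encodes IRE1, was below the filter and not tested, with 6.40 to 6.69 in IL-6 and 6.52 to 6.97 in the combination. In the PERK-ATF4 branch the factor Atf5 was 4.01-fold higher, Asns, which makes asparagine, 2.26-fold higher, and Chac1, which breaks down glutathione, rose by 1.72 from below the filter. Lman1, a cargo receptor of the COPII route, and Sec23b, a COPII coat subunit, were 1.55-fold and 1.49-fold higher.

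The endoplasmic reticulum stress element, CCAAT and CCACG with 9 bases between them, is the motif through which ATF6 and XBP1 are known to act. Searched on both strands, it stood in 9 of 38 folding genes with a promoter entry (23.7%), against 12 of all 5916 tested genes (0.203%) and 0.113% of the promoters in the table. Of the 9 genes, Calr, Creld2, Dnajc3, Hspa5, Pdia6 and Syvn1 were called higher, and Canx, Ero1b and Hsp90b1 were not called. The Hspa5 promoter, at chr2:34771840-34772089 on the plus strand, is shown with the element in capitals, 65 bases before the start.
Hspa5: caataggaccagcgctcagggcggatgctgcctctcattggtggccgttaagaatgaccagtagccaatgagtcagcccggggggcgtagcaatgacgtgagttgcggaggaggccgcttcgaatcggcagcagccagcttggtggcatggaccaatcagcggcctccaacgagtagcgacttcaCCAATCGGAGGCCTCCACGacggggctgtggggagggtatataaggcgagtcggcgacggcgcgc

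**Figure D3:**
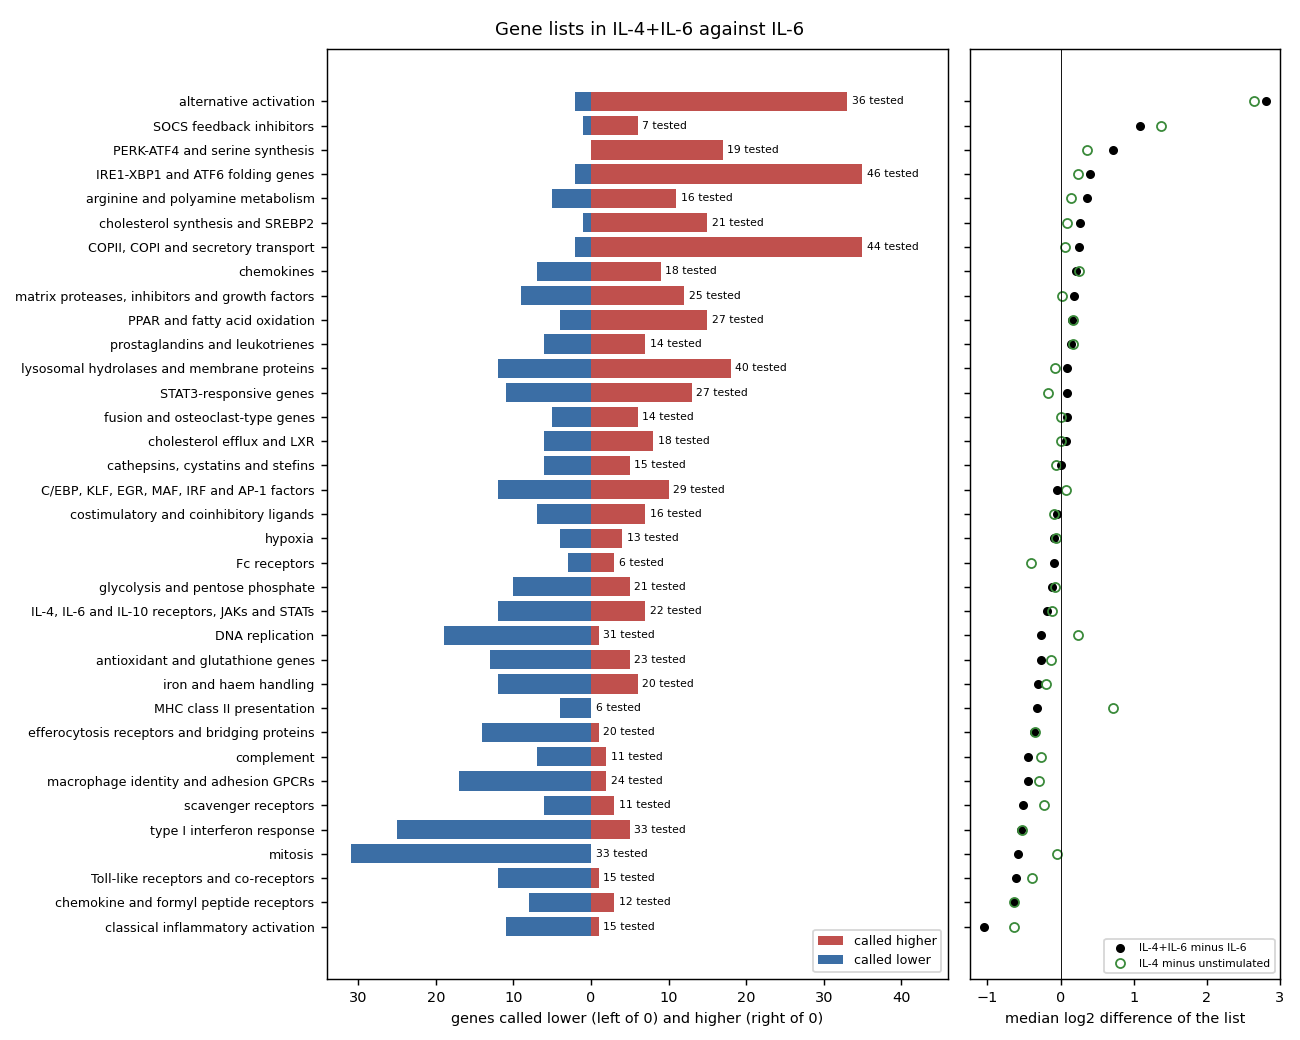
Left, number of genes of each of 35 lists called higher (red, right of 0) and lower (blue, left of 0) in IL-4+IL-6 against IL-6, with the number tested beside each bar. Right, the list's median log2 difference in that comparison (filled) and for IL-4 against unstimulated (open), ordered by the filled points; alternative activation is at the top with 2.81, and mitosis has 31 of 33 genes lower against a median of -0.05 for IL-4 alone.

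Lipid and energy metabolism held called genes in both directions, against 34% of all tested genes higher and 32.9% lower. Cholesterol synthesis genes were higher in 15 of 21 and lower in 1 (median 0.27), led by Mvd, the mevalonate pathway decarboxylase, which was 2.19-fold higher with no overlap (8.24 to 8.43 against 9.38 to 9.59). Of 18 genes of cholesterol efflux and the LXR pathway 8 were higher and 6 lower (median 0.08). Ch25h, which makes 25-hydroxycholesterol, read 6.56, 6.30, 6.03, 6.23 and 6.44 in IL-6 and 10.55, 9.99, 10.56, 10.24 and 10.62 in IL-4+IL-6. The lipid transfer gene Pltp was 2.38-fold lower and the desaturase gene Scd2 2.33-fold higher. Of 27 genes of the PPAR pathway and fatty acid oxidation 15 were higher and 4 lower (median 0.15), including Ppargc1b, a coactivator of mitochondrial genes, which was 2.03-fold higher, and the carnitine transferase gene Cpt1a, which was 1.45-fold lower. Glycolysis and pentose phosphate genes were higher in 5 and lower in 10 of 21 (median -0.12), with Pdk1, the kinase that blocks pyruvate entry into mitochondria, 2.53-fold lower.

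Iron and redox genes were lower more often than higher, where 32.9% of all tested genes were lower and 34% higher. Of 20 iron and haem genes, 12 were lower and 6 higher (median -0.30). Next to Slc40a1, the phagosomal metal transporter Slc11a1 (Nramp1) read 11.88, 11.71, 11.74, 11.72 and 11.64 in IL-6 and 9.95, 9.79, 9.76, 9.82 and 9.57 in IL-4+IL-6, a 3.9-fold fall. Antioxidant and glutathione genes were lower in 13 of 23 and higher in 5 (median -0.27), with the glutathione reductase gene Gsr 2.26-fold and the superoxide dismutase gene Sod1 2.1-fold lower. The hypoxia list was even, 4 of 13 in each direction (median -0.09), near the shares of all genes. Its largest change was Ndrg1, a stress-responsive gene, which was 5.09-fold lower.

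Of 15 cathepsins, cystatins and stefins 5 were higher, 6 lower and 4 not called (median 0.01), against 34% of all genes higher and 32.9% lower. Ctsc, which activates granule serine proteases, read 14.03, 14.04, 13.96, 13.92 and 13.92 in IL-6 and 12.65, 12.65, 12.67, 12.63 and 12.31 in IL-4+IL-6, a 2.62-fold fall. The bone-resorbing protease gene Ctsk was 2.25-fold higher, and Cst7, the inhibitor cystatin F, rose by 2.45 from below the filter. Of the other cathepsins named here, Ctsl was 1.1-fold and Ctsz 1.22-fold higher, and Ctss differed by -0.01 (SE 0.0288, limma adjusted p = 0.7). For Ctsb the probe sets disagreed. The brightest, used here (14.68 in IL-6), differed by 0.03 (limma adjusted p = 0.32). The others, at 12.96, 13.8 and 14.23 in IL-6, differed by -0.56, -0.20 and -0.02. The mean of the Ctsb probe sets differed by -0.19 (limma adjusted p = 1.15e-05). The Ctsb probe set used, Ctsl (14.62 in IL-6) and Ctss (14.52) lie near the highest value on any array, 15.13. Whether differences are compressed at such levels was not tested. Of 40 lysosomal hydrolases and membrane proteins 18 were higher and 12 lower (median 0.09), the lower ones near the share of all genes. The proton pump subunit Atp6v0a1 was 2.5-fold higher and the palmitoyl esterase gene Ppt1 1.89-fold lower.

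Cell cycle genes were mostly lower in the combination, where 32.9% of all tested genes were lower and 34% higher. Of 33 mitosis genes 31 were lower and 0 higher (median -0.58), and of 31 DNA replication genes 19 were lower and 1 higher (median -0.26). Top2a, the topoisomerase that untangles chromosomes, read 10.53, 10.35, 10.55, 10.43 and 10.38 in IL-6 and 9.82, 9.38, 9.62, 9.81 and 9.69 in IL-4+IL-6, a 1.72-fold fall. Tk1, the thymidine kinase of S phase, read 9.02, 8.89, 9.08, 8.93 and 8.96 against 7.97, 7.43, 7.87, 7.95 and 7.84, a 2.24-fold fall. The groups did not overlap in either gene. Cenpe, a kinetochore motor, and Ccnb2, a cyclin of mitosis, were 1.9-fold and 1.76-fold lower, while Dut, which removes dUTP, was the replication gene that rose (1.56-fold).

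The remaining lists held called genes in both directions, where 34% of all tested genes were higher and 32.9% lower. Among C/EBP, KLF, EGR, MAF, IRF and AP-1 factors 10 of 29 were higher and 12 lower (median -0.04). The repressor gene Bhlhe40 read 8.71, 8.68, 8.65, 8.77 and 8.70 in IL-6 and 11.59, 11.52, 11.53, 11.53 and 11.55 in IL-4+IL-6 (7.17-fold higher). Klf4, a factor that acts with STAT6, was 6.43-fold higher and Fos, an AP-1 subunit, 2.86-fold lower. Matrix and growth factor genes were higher in 12 and lower in 9 of 25 (median 0.19). Fn1, fibronectin, rose 8.31-fold (10.50 to 10.62 against 13.53 to 13.67), and Hbegf, a ligand of the EGF receptor, rose by 3.41 from below the filter. Of 14 fusion and osteoclast-type genes 6 were higher and 5 lower (median 0.08): Ocstamp, needed for cell fusion, rose by 3.50 from below the filter and the tetraspanin gene Cd81 was 4.56-fold higher. Of 14 prostaglandin and leukotriene genes 7 were higher and 6 lower (median 0.15), with the prostaglandin D synthase gene Hpgds 5.99-fold lower, Hpgd, which inactivates prostaglandins, 4.97-fold lower, and Ptgir, the prostacyclin receptor, raised by 1.58 from just below the filter.

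The effect of IL-4 with IL-6 was next set against its effect alone, IL-4 against unstimulated, which uses none of the same arrays. The unstimulated group has replicates 1 to 8, where the IL-4 and IL-6 groups have 1 to 5. Its Actb 3' minus 5' signal was 0.309 to 0.329 in replicates 1 to 5 and 0.366 to 0.504 in 6 to 8. Replicates 6 to 8 may form a second set with the IL-10 arrays, which the labels do not state. IL-4 alone called 4254 genes (59.5%), 27.6% of the tested genes higher and 31.9% lower. The genes called in the same direction in both comparisons numbered 3013, which is 63% of the calls with IL-6 and 70.8% of those with IL-4 alone, and 319 were called in opposite directions. Across the 7153 genes, which are not independent replicates, the log2 differences of both comparisons correlated with r = 0.764. The difference between the effects was called for 2858 genes (40%), higher with IL-6 for 1530 (21.4%) and lower for 1328 (18.6%). With a term for the 2 possible sets it was called for 2759 genes, and with replicates 1 to 5 of the first set only for 2939.

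**Figure D4:**
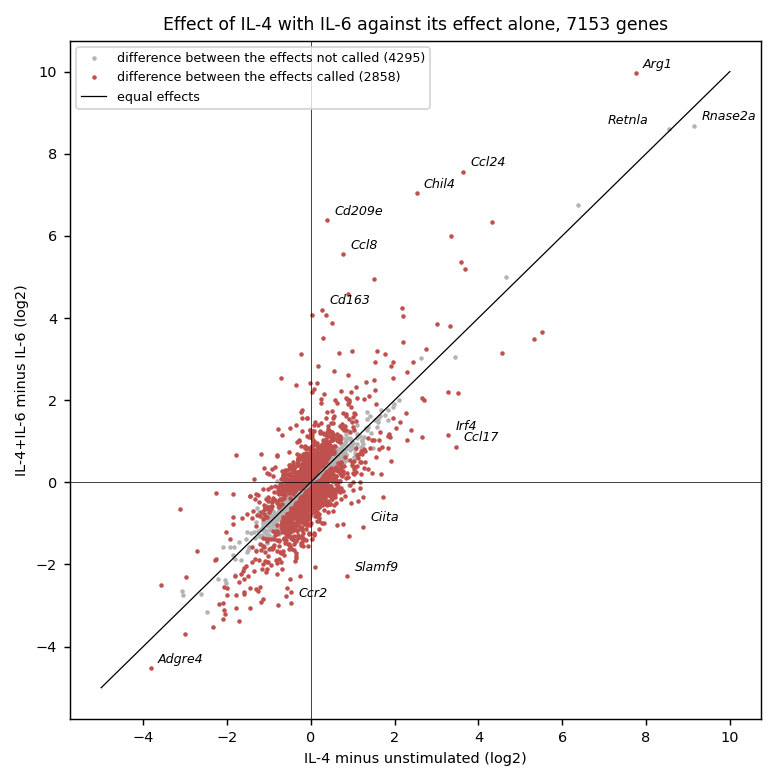
Log2 difference of IL-4+IL-6 minus IL-6 (vertical) against IL-4 minus unstimulated (horizontal) for 7153 genes, red where the difference between the effects was called (2858) and grey otherwise, with the diagonal marking equal effects. Retnla and Rnase2a lie on or near the diagonal, while Cd209e, Ccl8 and Cd163 lie above it near a horizontal value of 0 to 1.

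Within alternative activation, IL-6 went with a larger rise of some genes, a smaller rise of others, and no called difference for the rest. Retnla rose by 8.55 with IL-4 alone and by 8.60 with IL-6, and the difference of 0.05 was not called (limma adjusted p = 0.798). Arg1 rose by 7.75 alone and by 9.96 with IL-6, a difference of 2.20 (limma adjusted p = 6.4e-15). Retnla and Arg1 had means of 14.59 and 14.21 in IL-4+IL-6, near the highest value on any array, 15.13. Whether differences are compressed at such levels was not tested. Cd209e had a mean of 4.09 in unstimulated cells, 4.48 with IL-4 and 4.57 with IL-6, all under the filter, and 10.95 with IL-4+IL-6 (difference between the effects 6.00, limma adjusted p = 1.2e-22). Ccl8 (4.78), Chil4 (4.51), the lectin gene Cd209a (4.04), Ccl24 (3.93), Cd163 (3.93), the retinol carrier gene Rbp4 (3.71) and Ch25h (3.70) completed the 8 most positive differences. For Cd209e, Chil4, Cd209a, Cd163, Rbp4 and Ch25h the means of unstimulated, IL-4 and IL-6 cells were all under the filter, so the sizes of these differences rest on values near background. Over the 36 tested genes of the list, the difference was called higher for 14 and lower for 12, with a median of 0.06. The shares of all genes were 21.4% and 18.6%.

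The most negative differences were Slamf9 (-3.16), Ccl17 (-2.61), Ccr2 (-2.46), Ciita (-2.33), the lectin gene Clec4b1 (-2.22), F13a1 (-2.21), Tmem176b (-2.20) and Ramp1, a receptor partner for the peptide CGRP (-2.16). Slamf9, a SLAM family receptor, read 11.04, 10.96, 11.22, 11.22 and 11.47 in IL-6 and 9.0, 8.54, 8.96, 8.98 and 8.99 in IL-4+IL-6, whereas its mean was 10.20 in unstimulated cells and 11.08 with IL-4. Thus IL-4 lowered Slamf9 with IL-6 and raised it alone. Ccl17 rose by 3.48 with IL-4 alone, to 8.44, and by 0.87 with IL-6, to 5.89. Ocstamp likewise rose by 5.32 alone and by 3.50 with IL-6 (difference -1.82, limma adjusted p = 2.41e-07).

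Whole lists also differed between the backgrounds. For MHC class II presentation all 6 tested genes were higher with IL-4 alone (median 0.71), and the difference between the effects was called lower for all 6 (median -1.06), against 18.6% of all genes. H2-Ab1 rose by 0.73 alone and fell by 0.40 with IL-6 (difference -1.13, limma adjusted p = 0.000313). For DNA replication, IL-4 alone raised 20 of 31 genes and lowered 1, where IL-4 with IL-6 raised 1 and lowered 19, and the difference was called lower for 25 (median -0.54). For mitosis, IL-4 alone raised 1 and lowered 2 of 33 genes, and the difference was lower for 28. Top2a differed by -0.12 with IL-4 alone (limma adjusted p = 0.292) and by -0.78 with IL-6, and the difference of -0.66 was called (limma adjusted p = 0.000705). In the other direction, the difference was called higher for 27 of 44 genes of secretory transport and lower for 2, for 12 and 0 of 19 PERK-ATF4 genes, and for 22 and 6 of 40 lysosomal genes, against 21.4% of all genes higher. Pdia4 rose by 1.07 alone and by 2.31 with IL-6 (difference 1.24, limma adjusted p = 2.46e-11). Hspa5 rose by 0.25 alone and by 0.23 with IL-6, and the difference of -0.02 (SE 0.0463) was not called (limma adjusted p = 0.727).

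IL-10, the other STAT3 cytokine of the study, gave a second background. IL-4 added to IL-10 called 4284 genes (59.9%), 31.8% of the tested genes higher and 28.1% lower. Of these, 3569 were called in the same direction with IL-6 (74.6% of the calls with IL-6 and 83.3% of those with IL-10) and 78 in the opposite one. Across genes the differences correlated with r = 0.924. The difference between the effects was called for 939 genes (13.1%), 442 higher (6.18%) and 497 lower (6.95%) with IL-6. The groups with IL-10 have 3 arrays each, against 5 in the groups with IL-6. With a term for the 2 possible sets of arrays, the difference was called for 1149 genes. Arg1 (10.11 with IL-10) and Retnla (8.65) did not pass the test of a difference (limma adjusted p = 0.514 and 0.884). Both lie near the top of the scale in IL-4+IL-6 (14.21 and 14.59), and compression there was not tested.

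**Figure D5:**
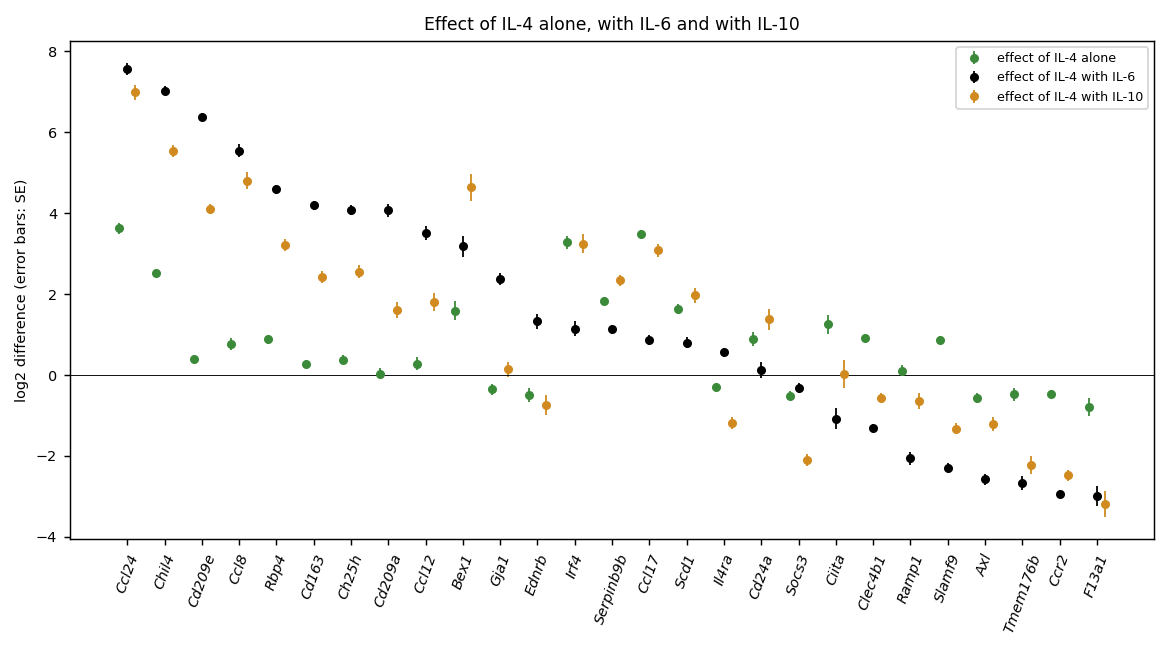
Log2 effect of IL-4 alone (green), with IL-6 (black) and with IL-10 (orange) for the 27 genes named for the most positive or negative differences between the effects, with the SE of each effect as error bars, ordered by the effect with IL-6. Socs3 and Il4ra lie lowest with IL-10 (-2.11 and -1.19), and Irf4 and Ccl17 lie lowest with IL-6 (1.15 and 0.87).

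Among the most positive differences were 5 genes of the STAT3-responsive list, Socs3, Il4ra, Gja1, Ednrb and Ccl12. Socs3 read 11.82, 12.22 and 12.36 with IL-10 and 10.06, 9.94 and 10.09 with IL-4+IL-10, so it fell by 2.11 there and by 0.32 with IL-6, and the difference of 1.78 was called (limma adjusted p = 2.48e-07). Il4ra read between 10.89 and 11.22 on the 3 arrays with IL-10 and 9.65, 10.10 and 9.80 with IL-4+IL-10, so it fell by 1.19 there and rose by 0.57 with IL-6 (difference 1.75, limma adjusted p = 9.77e-08). Gja1 rose by 0.14 with IL-10 and by 2.37 with IL-6, and the endothelin receptor gene Ednrb fell by 0.74 with IL-10 and rose by 1.33 with IL-6 (differences 2.22 and 2.07). These 4 genes were named for their positive differences, so their direction follows from that choice. Of 27 STAT3-responsive genes, the difference was called higher for 8 and lower for 1, against 6.18% and 6.95% of all genes, and was not called for the rest. Cd209a (2.47), Cd209e (2.28), Cd163 (1.77) and Ccl12 (1.72) were the other most positive differences. Cd209a, Cd209e and Cd163 had IL-6 means under the filter (6.03, 4.57 and 4.68), so the sizes of their differences rest partly on values near background.

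The most negative were Ccl17 (-2.22) and Irf4 (-2.09), the factor needed for parts of alternative activation. Irf4 read 5.33, 5.38 and 4.99 with IL-10 and 8.56, 8.29 and 8.57 with IL-4+IL-10, against 6.00, 5.73, 5.88, 6.10 and 6.05 with IL-6 and 7.40, 6.65, 7.01, 7.16 and 7.30 with IL-4+IL-6. IL-4 alone raised it by 3.28, to 9.74. The combination with IL-6 was thus the lowest of the 3 groups with IL-4. The others were Bex1 (-1.45), Ramp1 (-1.42), Axl (-1.36), Cd24a (-1.24), the serpin gene Serpinb9b (-1.21) and the desaturase gene Scd1 (-1.17). Ccl17, Irf4, Bex1 and Serpinb9b had IL-6 means under the filter, and Ccl17, Ramp1 and Axl had IL-4+IL-6 means under it. The sizes of these differences thus rest partly on values near background. In the alternative activation list the difference was higher for 5 and lower for 10 of 36, against 6.18% and 6.95% of all genes. Batf3, in that list, rose by 2.82 with IL-10 and by 2.01 with IL-6. Among transcription factors the difference was higher for 1 and lower for 8 of 29.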

How the data were processed

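Biotin-labelled cRNA from total RNA was read on 3' expression arrays, 1 per sample. Each value is a log2 intensity as the authors deposited it, made by RMA (background correction, quantile normalization and probe set summary) with GCOS 1.4, per the submitters' processing notes. Precision is limited by how many arrays there are. Of 22690 probe sets, 20380 name 1 gene, and each gene was represented by the brightest of these on average. Genes with at least 3 of 29 arrays above log2 6.99 were fitted with limma 3.58.1 (R 4.3.3) in 1 model of 6 groups, which share an estimate of the spread, and p-values were Benjamini-Hochberg adjusted over 7153 genes. Contrasts of contrasts tested the differences between IL-4 effects. Tested on simulated data for IL-4+IL-6 against IL-6, the fit recovered 97% of changes of 0.5 and 100% of changes of 1 or 2 on the log2 scale, with 7 false calls (3.41%). The simulation changed far fewer genes than were called here and drew independent noise for each array, so these rates may not hold for the real arrays.

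Equal replicate numbers paired the arrays of IL-6 and IL-4+IL-6: deviations from the group means correlated at 0.56 to 0.70 in all 5 pairs, against -0.532 to 0.434 between other numbers. The pairing comes from the data, since the labels do not say what a number marks, and the fit without the replicate block was kept. Named genes included the 12 largest increases and decreases among genes that did not overlap and moved the same way in all 5 pairs. Also named were up to 4 called members of each gene list with the largest differences and a few fixed genes of the IL-4, IL-6 and stress pathways. The 8 most positive and negative genes of each contrast of effects completed the named genes. Genes named for a promoter motif or as a paralog, and Ccr7, fall outside this rule and were picked once their values were known. The comparison and the lists were chosen with earlier results of these data known. Alternatives changed the scaling, filter, probe set choice, variance model, arrays fitted, pairing and threshold. The RefSeq promoter table (GRCm38.p6) was matched by symbol, and 5916 of the tested genes had an entry.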

Additional observations from a re-analysis of the deposited data

Results flagged for a closer look

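Among 161 named genes in the IL-6 and IL-4+IL-6 groups, 23 of 322 sets of 5 values held an array far from the other 4 (by Dixon's test of the gap over the group's range). Chance gives about 1 in 20. IL-6 replicate 5 accounted for 12 of them, IL-4+IL-6 replicate 2 for 4, IL-4+IL-6 replicate 1 for 3, IL-4+IL-6 replicate 5 for 2, and IL-6 replicates 2 and 3 for 1 each.

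IL-6 replicate 5 was low for Slc40a1 at 9.48, Socs2 at 5.392, Fuca1 at 12.03, Stab2 at 6.118, Mpeg1 at 13.99 and Sod1 at 11.52. The same array was high for Tnfsf9 at 8.177, Ndrg1 at 11.44, Il4ra at 11.04, Hspa5 at 13.69, Scd1 at 8.159 and Gja1 at 10.54, where the other 4 IL-6 arrays read 9.90 to 9.92 for Gja1. Gatm was low in IL-6 replicate 2 at 9.375, and Vegfa in IL-6 replicate 3 at 7.741. In the combination, replicate 5 was low for Ctsc at 12.31 and Fuca1 at 11.31. Replicate 1 was high for Sec23b at 11.17 and Il4ra at 11.43 and low for Xbp1 at 12.51. Replicate 2 was low for Itgax at 11.6, for the cell cycle genes Tk1 at 7.428 and Rrm2 at 9.175, and for Slamf9 at 8.541. Without IL-6 replicate 5, none of the named genes lost or gained its call.

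The effect of IL-4 with IL-6 differed from its effect alone, by the test of the difference in limma, most upward for Cd209e (6.00), Ccl8 (4.78), Chil4 (4.51), Cd209a (4.04), Ccl24 (3.93), Cd163 (3.93), Rbp4 (3.71) and Ch25h (3.70). It differed most downward for Slamf9 (-3.16), Ccl17 (-2.61), Ccr2 (-2.46), Ciita (-2.33), Clec4b1 (-2.22), F13a1 (-2.21), Tmem176b (-2.20) and Ramp1 (-2.16). Against the effect of IL-4 with IL-10 the largest upward differences were those of Cd209a (2.47), Cd209e (2.28), Gja1 (2.22), Ednrb (2.07), Socs3 (1.78), Cd163 (1.77), Il4ra (1.75) and Ccl12 (1.72). The largest downward ones were those of Ccl17 (-2.22), Irf4 (-2.09), Bex1 (-1.45), Ramp1 (-1.42), Axl (-1.36), Cd24a (-1.24), Serpinb9b (-1.21) and Scd1 (-1.17). All values are differences between 2 log2 differences. For Cd209e, Chil4, Cd209a, Cd163, Rbp4 and Ch25h, those against IL-4 alone rest on 3 group means under the intensity filter. In the differences against IL-10, Cd209a, Cd209e, Cd163, Ccl17, Irf4, Bex1 and Serpinb9b had an IL-6 mean under it. Ccl17, Ramp1 and Axl had an IL-4+IL-6 mean under it.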

How the results depend on the processing

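With only genes above the 75th percentile tested, 1597 genes were higher and 1485 lower in IL-4+IL-6 against IL-6, and IL-4 alone and IL-4 on IL-10 called 2747 and 2844; fewer genes enter these fits. With every probe set by itself, 3594 were lower and IL-4 on IL-10 called 6430, since more features were tested. Requiring a log2 difference of at least 1 left 216 higher and 270 lower, 213 and 43 genes in the differences from IL-4 alone and from IL-10, 293 for IL-4 alone and 469 on IL-10. An adjusted p under 0.01 left 514 in the difference from IL-10. Leaving out 1 array of the 2 groups gave 2292 to 2444 higher, 2247 to 2402 lower, 2656 to 2762 and 805 to 966 for the differences. The alternatives for IL-4 alone and IL-4 on IL-10 were chosen after seeing the data.

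With the replicate block on the 2 groups, 2665 genes were higher and 2614 lower; 4758 of the 4785 calls were shared. With the block on 20 arrays of 4 groups the counts were 2734 and 2665, and 3499 for the difference from IL-4 alone. With the block on the 2 groups no named gene changed its call. On the 20 arrays Xbp1 alone gained one, with the block (limma adjusted p = 0.022) and without it (0.0298). Over 3823 values of 161 named genes, 20 lost their call (H2-Ab1 11, H2-Aa 8, Socs3 1), 8 gained one (Xbp1 7, Ctsb 1) and 1 reversed: Ctsb, at -0.187 as the mean of its probe sets. Median centring moved the share higher from 50.8% to 56.5% of calls. Values near the filter have little signal over background.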
